A study of Mus musculus with 8 samples.

Results

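The leucine branch comprises the genes Ivd, Mccc1, Mccc2 and Auh, whose enzymes carry out the steps that are particular to the breakdown of leucine. The 4 genes were chosen by name among the 18395 genes of the deposited count table. All 4 were found in the table and all 4 were among the 13901 genes tested after removal of genes with low counts. Each was counted at least 1899 times in every library, so that counting error was small beside the spread between libraries.

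The libraries were made from adipose tissue of mice kept at 4 °C for 6 hours. The 4 WT libraries came from control mice and the 4 KO libraries from mice in which Kindlin-2, an integrin-binding adhesion protein encoded by Fermt2, had been deleted in brown adipocytes. Both groups shared the cold exposure. Strain, age, sex, depot and the promoter that drove the deletion were not given in the sources used here. No label says whether replicates were separate animals, and p-values therefore reflect only how much these samples varied, which may be technical. Total counts per library ranged from 33672272 to 43253559. Fermt2 lay at 239, 235, 244 and 201 CPM (counts per 1000000, on library sizes after TMM scaling, which evens out the bulk of genes) in WT, replicates 1 to 4, and at 192, 132, 173 and 174 CPM in KO. With TMM scaling the KO libraries thus all lay below the WT libraries for the targeted gene, as for 7.56% of all genes tested. Its log2 fold change was -0.45 (edgeR adjusted p = 0.134 over all genes). With total library size only, that is without TMM scaling, it was -0.19 (edgeR adjusted p = 0.374). All 12 brown adipocyte markers, Ucp1 included, were counted in every library. A pair of libraries stood apart. In WT replicate 3 the 10 skeletal muscle markers summed to 39831 CPM, against 257 CPM at most elsewhere, and in KO replicate 2 the 10 interferon response genes summed to 2723 CPM, against 345 CPM at most elsewhere. The comparison without both is called the 6-library comparison.

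Leucine is first transaminated and then oxidatively decarboxylated by the branched-chain ketoacid dehydrogenase, steps it shares with valine and isoleucine. The product, isovaleryl-CoA, is oxidised in the mitochondrial matrix by isovaleryl-CoA dehydrogenase (Ivd), which hands its electrons to the electron transfer flavoprotein. Methylcrotonyl-CoA carboxylase, a biotin enzyme built from an alpha subunit that carries the biotin (Mccc1) and a beta subunit (Mccc2), then adds a carboxyl group. Methylglutaconyl-CoA hydratase (Auh), an enzyme that was also described as an RNA-binding protein, forms HMG-CoA. Brown fat takes up and oxidises branched-chain amino acids during cold exposure.

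With TMM scaling all 4 genes were lower in KO, at 61.2% of the WT mean for Ivd, 63.0% for Mccc2, 66.9% for Mccc1 and 68.8% for Auh. In bulk tissue, fewer cells of a type and less RNA per cell cannot be told apart. A log2 fold change below 0 was found for 49.5% of all genes tested. In the quasi-likelihood test of edgeR with TMM scaling and 8 libraries no member passed the threshold. That test made 0 calls among 13901 genes (0%). There, all 4 members had an unadjusted p under 0.05 and were lower, as had 11.1% of all genes, and 21.5% did in either direction (2993 genes). DESeq2 made 1160 calls on the same libraries, with Ivd, Mccc2 and Auh among the 4.8% of genes it called lower in KO. All 4 members were called lower in the 6-library comparison, which called 208 genes lower in KO, or 1.5% of those tested. That comparison was added later, with earlier results of these data known. It leaves out WT replicate 3, the lowest WT library for Ivd, Mccc1 and Auh, and KO replicate 2, the highest KO library for Mccc1. With 8 libraries and TMM scaling, every KO library lay below every WT library in 3 of the 4 genes. Of all genes tested, 7.56% had that pattern. For Auh it did not hold on total library size. In the 6 libraries, with TMM scaling, all 4 members had the pattern, beside 15.3% of all genes.

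Ivd, the dehydrogenase that opens the branch (ENSMUSG00000027332), was measured at 233, 245, 198 and 234 CPM in the WT libraries, replicates 1 to 4. The KO libraries, in the same order, reached 122, 144, 153 and 138 CPM. The highest KO library stayed 45.1 CPM short of the lowest WT library, which was WT replicate 3. WT averaged 228 ± 20.4 CPM and KO averaged 139 ± 13.0 CPM (SD, n = 4). On the log2 scale KO differed from WT by -0.71 ± 0.12 (SE; edgeR adjusted p = 0.0874). In the 6-library comparison it was -0.78 ± 0.12, with an adjusted p of 0.0289.

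Mccc1 (ENSMUSG00000027709), the subunit to which biotin is attached, varied most within the groups. Its levels were 80.4, 100.2, 64.3 and 97.6 CPM in WT and 43.8, 70.9, 61.6 and 53.0 CPM in KO, replicates 1 to 4. The groups overlapped through the pair of libraries that stood apart, since KO replicate 2 lay above WT replicate 3 and the other 3 KO libraries lay below every WT library. The WT mean was 85.6 ± 16.7 CPM and the KO mean 57.3 ± 11.6 CPM (SD, n = 4). With 8 libraries the log2 fold change was -0.58 ± 0.19 (edgeR adjusted p = 0.150), and in the 6-library comparison -0.81 ± 0.15 (adjusted p = 0.0339).

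Mccc2 (ENSMUSG00000021646), the partner subunit, varied least. WT replicates 1 to 4 had 93.2, 104, 95.4 and 95.0 CPM, and KO replicates 1 to 4 had 59.6, 57.9, 68.6 and 58.2 CPM. All WT libraries lay above all KO libraries, and the muscle-rich WT replicate 3 lay within the range of its group. The pooled SD within groups was 0.10 on the log2 scale, a smaller spread than in all but 3.12% of the genes tested, against 0.30 for Mccc1, 0.14 for Ivd and 0.18 for Auh. The WT mean of 96.9 ± 4.93 CPM and the KO mean of 61.1 ± 5.05 CPM (SD, n = 4) gave a log2 fold change of -0.67 ± 0.10 (edgeR adjusted p = 0.0874). In the 6-library comparison the value was -0.65 ± 0.12 (adjusted p = 0.0336).

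Auh (ENSMUSG00000021460), the hydratase, stood at 111, 129.6, 93.4 and 124 CPM in WT and at 71.2, 78.9, 90.3 and 74.8 CPM in KO, replicates 1 to 4. After TMM scaling its groups did not overlap but came close, with KO replicate 3 just under WT replicate 3. Before that scaling KO replicate 3 had the larger share, with 3378 of 35734373 counts. WT replicate 3 had 2790 of 34221151. Mean levels were 115 ± 16.1 CPM for WT and 78.8 ± 8.29 CPM for KO (SD, n = 4). KO against WT gave a log2 difference of -0.54 ± 0.13 with 8 libraries (edgeR adjusted p = 0.103) and -0.63 ± 0.13 with 6 (adjusted p = 0.0408).

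**Figure D1:**
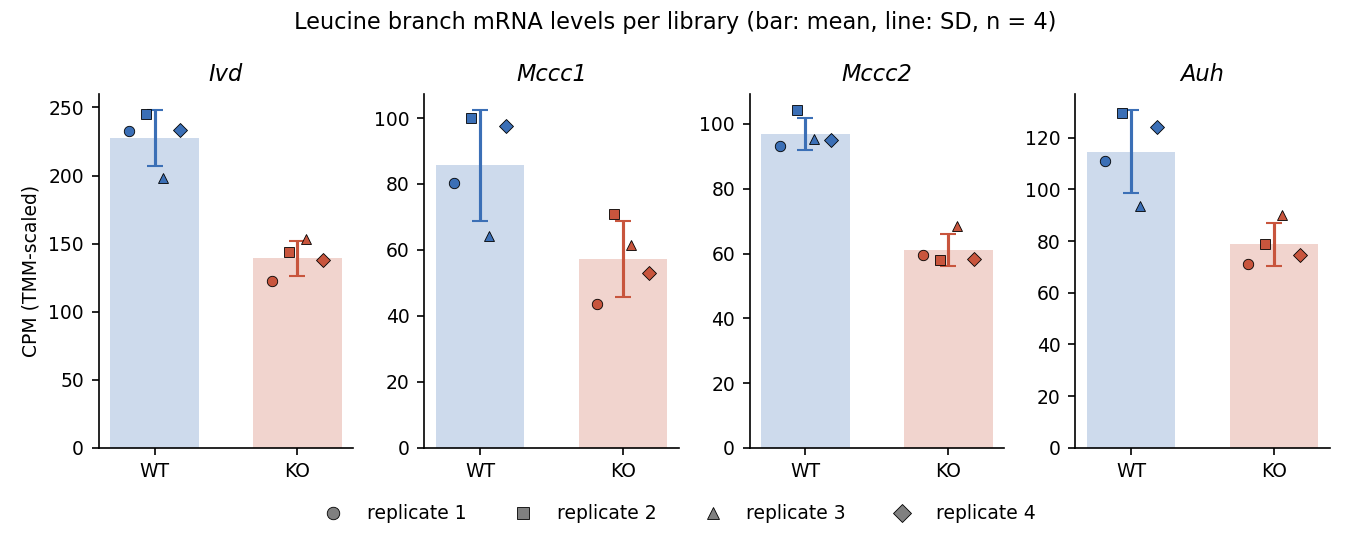
Levels of Ivd, Mccc1, Mccc2 and Auh in CPM on TMM-scaled library sizes (y axis, from 0) in the 4 WT and 4 KO libraries; bars are means, lines are SD and each symbol is a replicate number. On this scale the groups do not overlap for Ivd, Mccc2 and Auh, and overlap for Mccc1 through WT replicate 3 and KO replicate 2. On total library size the groups overlap for Auh as well.

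Levels of different genes were compared per kilobase of exon, with the merged exons of protein-coding transcripts in the GENCODE M21 basic set as length. Within the branch the order in WT was Ivd with 62.1 ± 5.55 CPM per kilobase, Mccc2 with 45.7 ± 2.32, Mccc1 with 34.9 ± 6.81 and Auh with 14.9 ± 2.10 (SD, n = 4). No neighbours in that order overlapped in WT. In KO, Ivd stood at 38.0 ± 3.54 CPM per kilobase, Mccc2 at 28.8 ± 2.38, Mccc1 at 23.3 ± 4.73 and Auh at 10.3 ± 1.08, and the libraries of Mccc1 and Mccc2 overlapped. The low place of Auh rests on an exon length of 7.67 kilobases, set by all its annotated coding transcripts, whose use in this tissue was not measured.

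The ratio of 2 genes within a library does not depend on scaling. The 6 such ratios between pairs of members were compared between KO and WT, and none passed an exact permutation test after adjustment over the 6 pairs, for which 1 pair without overlap can reach no less than 0.171 on its own. Ivd to Auh was that pair, with a log2 ratio of 1.00 ± 0.093 in WT and 0.82 ± 0.060 in KO (SD, n = 4, unadjusted two-sided exact permutation p = 0.0286, adjusted p = 0.171), all KO libraries below all WT libraries. The other 5 differences lay between -0.14 and 0.089, with unadjusted exact permutation p-values from 0.20 to 0.714. For the subunits of the carboxylase, Mccc1 to Mccc2, the log2 ratio was -0.21, -0.06, -0.57 and 0.04 in WT and -0.44, 0.29, -0.16 and -0.13 in KO, replicates 1 to 4. The lowest of these 8 values was in WT replicate 3 and the highest in KO replicate 2. The difference was 0.089 with 8 libraries and -0.17 in the 6-library comparison, so that it had no stable sign.

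**Figure D2:**
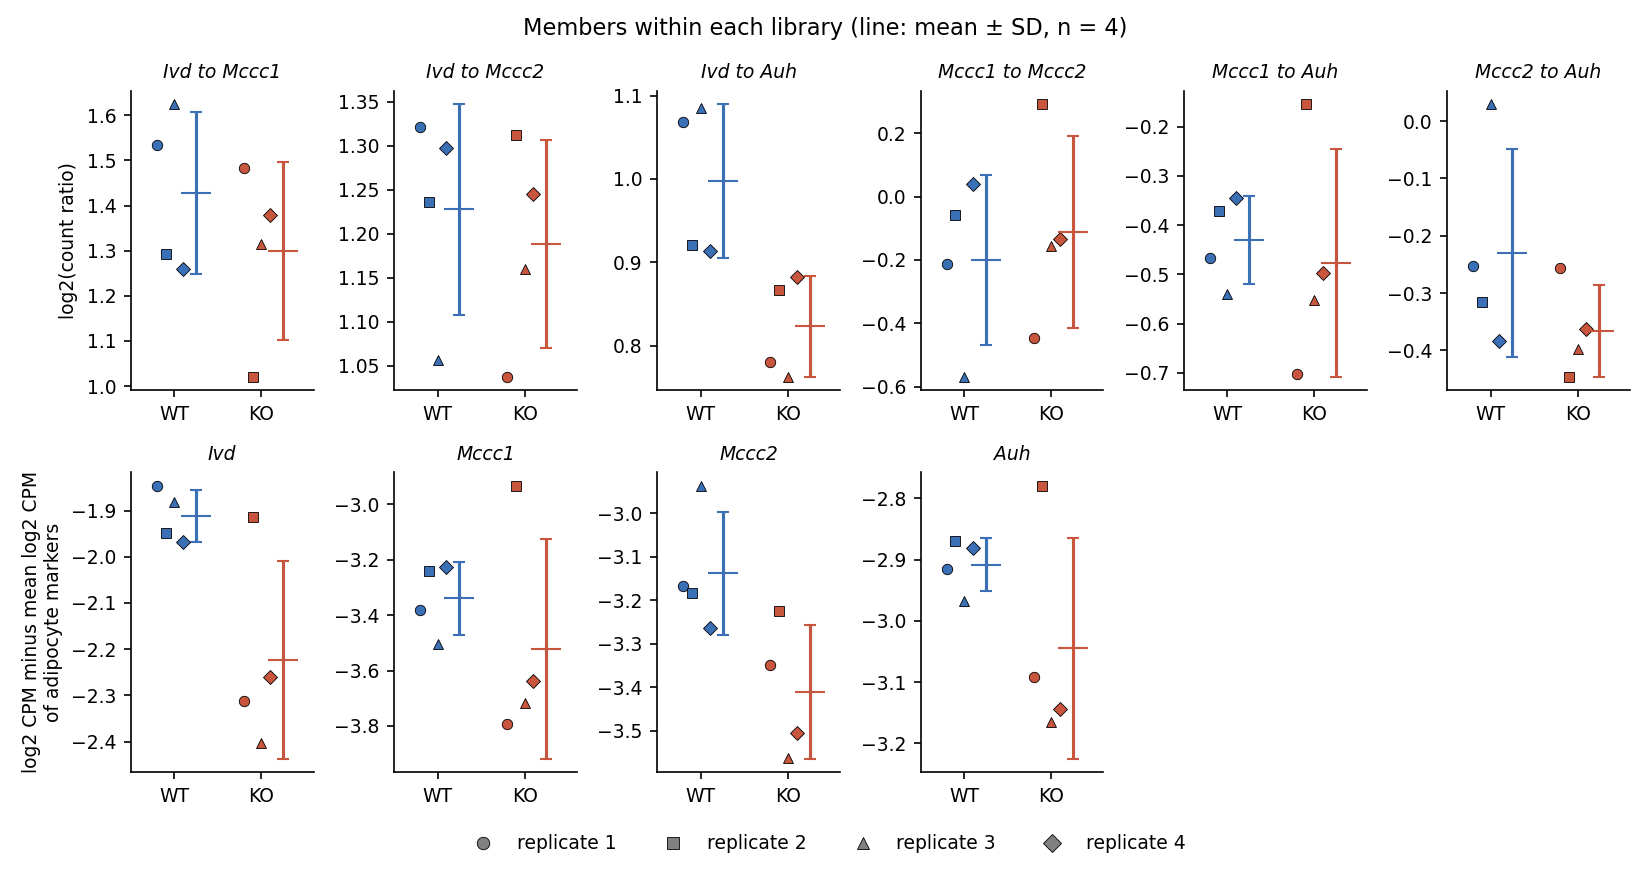
Upper row: log2 count ratio of each pair of members within a library. Lower row: log2 CPM of each member minus the mean log2 CPM of 16 adipocyte markers in the same library; symbols are replicates of WT and KO and lines are means ± SD (n = 4). In the upper row KO lies below WT without overlap for Ivd to Auh and overlaps WT for the other 5 pairs, and in the lower row KO replicate 2 lies apart from the other 3 KO libraries.

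Cell type markers also differed in level between the groups, although edgeR with 8 libraries called 0 of the markers below. The 16 adipocyte markers, all counted in every library, summed to 29242 to 36130 CPM in WT and 23604 to 31865 CPM in KO, and 14 of 16 had a log2 fold change below 0 (median -0.45), against 11 of 16 with total library size only (median -0.20). The 12 brown adipocyte markers summed to 9512 to 12026 CPM in WT and 5929 to 9449 CPM in KO, with 11 of 12 below 0 (median -0.29), against 6 of 12 with total library size only (median -0.033). The adipocyte sums overlapped between the groups. With TMM scaling the brown adipocyte sums did not, by a narrow gap between 9512 CPM in WT replicate 3 and 9449 CPM in KO replicate 3. The TMM factors of these libraries were 0.879 and 1.05, and without that scaling KO replicate 3 lay above WT replicate 3. The 12 endothelial markers summed to 1656 to 2209 CPM in WT and 2016 to 3520 CPM in KO, with 11 of 12 above 0 (median 0.62), and 12 of 12 with total library size only (median 0.88). The 10 T and NK cell markers summed to 3.97 to 35.8 CPM in WT and 21.3 to 216 CPM in KO, the highest in KO replicate 2, with 10 of 10 above 0 (median 2.04). With 6 libraries 9 of these 10 were above 0 (median 0.93), and 0 were called. The 6-library comparison called 208 of 13901 genes lower and 253 higher. Among them were 1 adipocyte and 2 brown adipocyte markers, lower, and 5 endothelial markers, higher. The part of these lists in the members' difference was not tested. Set against the mean log2 CPM of the adipocyte markers in the same library, the members differed by -0.31 (Ivd), -0.27 (Mccc2), -0.18 (Mccc1) and -0.14 (Auh), and none passed an exact permutation test (adjusted p from 0.171 to 0.457 over the 4 members). KO replicate 2, with the lowest sums of both adipocyte lists, gave the highest KO value in all 4. With all 8 libraries the groups overlapped for each member, with 3 of the 4 KO libraries below every WT library. Without KO replicate 2 the differences were -0.41 (Ivd), -0.38 (Mccc1), -0.33 (Mccc2) and -0.23 (Auh). Each was then without overlap, with an exact permutation p of 0.0571, at which 3 against 4 cannot pass. This lack of overlap follows from leaving that library out, and its share among all genes was not counted. Set against the brown adipocyte markers, the 4 differences ranged from -0.22 (Ivd) to -0.051 (Auh).

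The sequence before each gene start is shown because 3 of the 4 genes share a feature there. The windows run from 250 bases before to 50 bases after the start in RefSeq (GRCm38.p6, while the counts were made on GRCm39), at chr2:118861744-118862043 (plus strand) for Ivd, chr3:36000629-36000928 (minus) for Mccc1, chr13:100015590-100015889 (minus) for Mccc2 and chr13:52929628-52929927 (minus) for Auh. Each is written 5′ to 3′ along the gene. Capitals mark CCAAT on either strand, which reads ATTGG on the other.
Ivd: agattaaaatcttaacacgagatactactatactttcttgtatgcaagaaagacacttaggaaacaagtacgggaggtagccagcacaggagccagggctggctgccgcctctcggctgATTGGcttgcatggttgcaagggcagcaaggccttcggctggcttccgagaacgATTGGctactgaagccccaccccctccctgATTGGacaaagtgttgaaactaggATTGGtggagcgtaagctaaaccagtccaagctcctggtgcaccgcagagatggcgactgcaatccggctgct
Mccc1: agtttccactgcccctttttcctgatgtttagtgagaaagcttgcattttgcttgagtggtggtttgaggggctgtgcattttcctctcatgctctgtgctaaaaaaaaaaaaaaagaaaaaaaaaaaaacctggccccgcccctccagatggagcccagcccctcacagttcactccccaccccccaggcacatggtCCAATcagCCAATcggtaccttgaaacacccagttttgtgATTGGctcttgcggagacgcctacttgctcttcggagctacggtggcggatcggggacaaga
Mccc2: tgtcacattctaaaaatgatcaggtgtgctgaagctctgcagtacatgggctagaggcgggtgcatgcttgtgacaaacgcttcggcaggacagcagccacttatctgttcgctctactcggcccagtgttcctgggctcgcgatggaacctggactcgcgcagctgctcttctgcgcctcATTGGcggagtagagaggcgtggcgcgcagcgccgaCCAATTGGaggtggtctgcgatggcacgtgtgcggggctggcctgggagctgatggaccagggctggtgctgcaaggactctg
Auh: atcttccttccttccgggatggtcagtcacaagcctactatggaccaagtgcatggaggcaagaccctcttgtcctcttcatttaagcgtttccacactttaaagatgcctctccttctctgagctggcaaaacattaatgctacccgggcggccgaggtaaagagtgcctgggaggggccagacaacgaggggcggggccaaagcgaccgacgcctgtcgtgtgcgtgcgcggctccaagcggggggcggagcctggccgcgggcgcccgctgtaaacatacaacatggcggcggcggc

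The CCAAT box, an element bound by the factor NF-Y in many promoters, was found 4 times before Ivd, 3 times before Mccc1 and 3 times before Mccc2, where a pair of matches overlaps on opposite strands and 2 are counted. Auh had no match in its window. Of all 32851 RefSeq windows of this length, 37.4% held at least 1 CCAAT, 11.5% at least 2, 3.21% at least 3 and 0.995% at least 4 without overlap. Among the windows of genes tested here, 37.4% held at least 1, 13.3% at least 2, 4.45% at least 3 and 1.58% at least 4. In Ivd the matches began at 131, 77, 47 and 23 bases before the start, all on the strand opposite to the gene. In Mccc1 they began at 52, 44 and 12 bases and in Mccc2 at 69, 33 and 30 bases before it. Auh instead held the GC box GGGCGG 3 times and Mccc1 held it once. At least 1 GC box was found in 35.7% of all windows and 60.4% of those of genes tested, and the share with 3 was not counted. The E-box CACGTG was found once, beginning 9 bases before the start of Mccc2 (7.15% of all windows and 9.54% of those of genes tested). No window held the estrogen-related receptor element TCAAGGTCA or its core AAGGTCA, the palindromic NRF1 motif, the direct repeat element of nuclear receptors (DR1), TATAAA, the cAMP response element TGACGTCA or its core TGACG, which were found in 0.423%, 4.72%, 4.60%, 0.0396%, 13.6%, 1.79% and 20.8% of all windows. Among windows of genes tested the shares were, in the same order, 0.265%, 3.36%, 9.06%, 0.0442%, 7.55%, 2.89% and 29.3%. Both strands were searched, and each core also lies within its full element. These matches describe letters in a window, and no binding was measured.

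**Figure D3:**
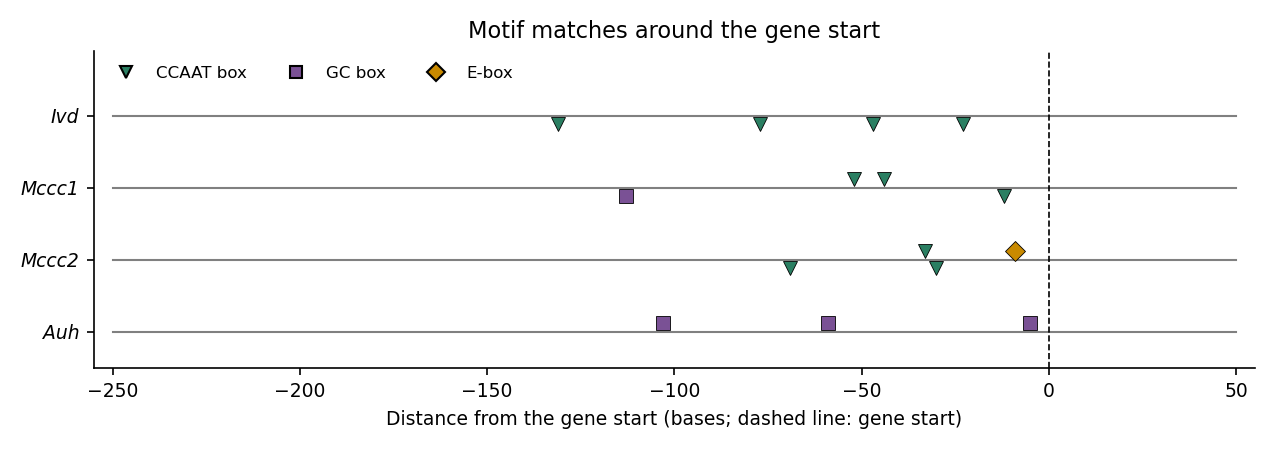
Matches of the CCAAT box, GC box and E-box (symbols, drawn above the line on the strand of the gene and below it on the opposite strand) by distance in bases from the RefSeq gene start (x axis, from 250 before to 50 after). Ivd, Mccc1 and Mccc2 hold CCAAT boxes within 131 bases before the start, and Auh holds 3 GC boxes and no CCAAT box.

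The genes around the branch were counted by lists, which were chosen with earlier results of these data known, beside a median log2 fold change of 0.0036 over all genes tested. With TMM scaling all 6 genes of the branched-chain ketoacid dehydrogenase and its control lay lower in KO (median -0.40), and 5 of 6 did with total library size only. Bckdha, a subunit of the decarboxylase, averaged 124 ± 19.1 CPM in the WT and 53.6 ± 19.6 CPM in the KO libraries (SD, n = 4). It was the 1 gene of this list called lower in the 6-library comparison (edgeR adjusted p = 0.0333). Ppm1k, the phosphatase that activates the complex, differed by -0.099 ± 0.20 (edgeR adjusted p = 0.793). Of 7 genes for entry and transamination, 5 lay lower (median -0.20), though 3 did so with total library size only (median 0.060). Bcat1 (0.69 ± 0.41, edgeR adjusted p = 0.333) and Slc7a5 (0.36 ± 0.51, adjusted p = 0.700) lay higher, at WT means of 1.72 and 1.20 CPM. Bcat2, the mitochondrial aminotransferase, differed by -0.54 ± 0.13 (edgeR adjusted p = 0.105), and Slc25a44, the mitochondrial carrier of branched-chain amino acids, by -0.55 ± 0.17 (adjusted p = 0.143).

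In the valine, isoleucine and propionate list all 12 genes lay lower (median -0.59), 11 of 12 with total library size only. In the 6-library comparison 7 were called lower. The members' own median was -0.62 with all libraries. Acat1, the thiolase for acetoacetyl-CoA, differed by -0.68 ± 0.13 (edgeR adjusted p = 0.0929, and 0.0363 with 6 libraries). The list of HMG-CoA synthesis and ketone use held 7 genes with a median of -0.39. All 7 lay lower in the edgeR fit with TMM scaling and 8 libraries, and 6 with upper-quartile factors. The count was 5 with total library size only, by limma-voom, with a replicate block or in the 6-library comparison. Of that list Acat1 was the 1 gene called lower with 6 libraries. Oxct1, which lets a cell use acetoacetate, differed by -0.39 ± 0.13 (edgeR adjusted p = 0.155).

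Acyl-CoA dehydrogenases other than Ivd, and the carriers of their electrons, were mostly lower as well. Of these 10 genes, 9 lay lower (median -0.63), also with total library size only, and 5 were called lower in the 6-library comparison. Etfdh, the dehydrogenase that passes the flavoprotein's electrons to ubiquinone, differed by -0.87 ± 0.13, and Etfa, the alpha chain of the flavoprotein, by -0.65 ± 0.15. Etfb, the beta chain of the same dimer, was the exception, with a log2 fold change of 0.31 ± 0.18 (edgeR adjusted p = 0.333). Its WT libraries had a mean of 88.7 ± 10.9 CPM (SD, n = 4). Its KO libraries, of which 3 of 4 lay above all WT libraries, had a mean of 110.2 ± 27.3 CPM (SD, n = 4). Per kilobase of exon, Etfb stood at 99.3 ± 12.2 CPM in WT, far below Etfa at 757 ± 114 CPM (SD, n = 4). Whether the counts of Etfb missed part of its reads was not tested, and its opposite direction rests on these counts.

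All 8 genes of the biotin list lay lower with TMM scaling (median -0.33), 7 with upper-quartile factors and 6 with total library size only. The genes called lower in the 6-library comparison were Pcca, the biotin subunit of propionyl-CoA carboxylase, and Pcx, pyruvate carboxylase. Hlcs, the ligase that attaches biotin to Mccc1 and the other carboxylases, differed by -0.31 ± 0.28 (edgeR adjusted p = 0.520), and Btd, which recycles biotin, by -0.40 ± 0.10 (adjusted p = 0.112). Relatives of Auh in the enoyl-CoA hydratase family lay lower in 8 of 8 cases (median -0.48), in 7 of 8 with total library size only. Ehhadh and Hadha were called lower with 6 libraries. These lists share genes such as Acat1, Pcca and Echs1, and their counts are not independent.

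**Figure D4:**
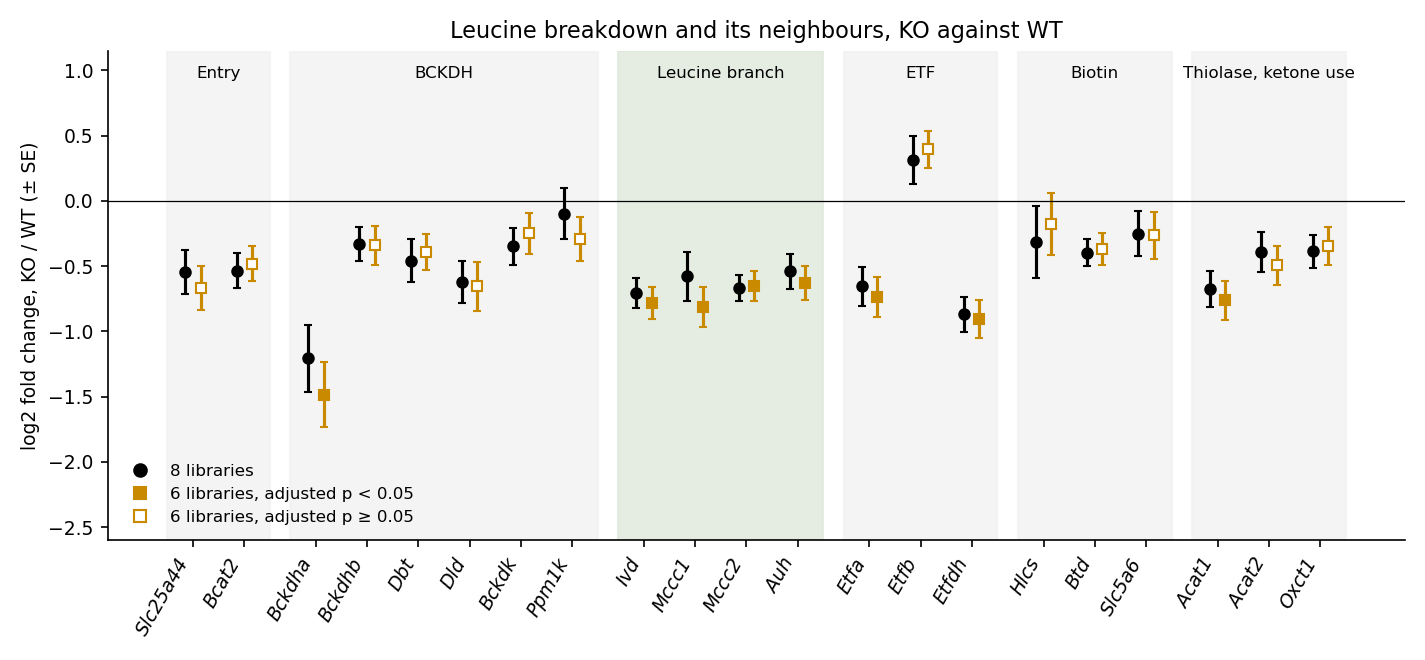
Log2 fold change of KO over WT with its SE (y axis) for selected genes of leucine entry, the ketoacid dehydrogenase (BCKDH), the leucine branch, the electron transfer flavoprotein (ETF), biotin and thiolase or ketone use. Of the entry list only Slc25a44 and Bcat2 are drawn, and Bcat1 and Slc7a5, which lay above 0 with 8 libraries, are not. Black circles are 8 libraries and squares are 6 libraries, filled where the adjusted p over all genes is under 0.05; Ivd, Mccc1, Mccc2 and Auh lie between -0.81 and -0.54, and Etfb lies above 0.

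The genes with the most similar profile were sought among 9002 genes whose log2 CPM averaged at least 3, by the root mean square distance between log2 CPM profiles centred on each gene's mean over the 8 libraries. Nearest to Ivd was Hibadh, a dehydrogenase of the valine branch, at a distance of 0.047, followed by Phyh at 0.064 and Etfa at 0.081, against a median distance of 0.42 over all genes ranked. Mccc1 was nearest to Fh1, fumarate hydratase (0.071), then to Pcca (0.088) and Idh3g (0.090). Mccc2 was nearest to Anxa6 (0.055), Por (0.056) and Coq9 (0.070). Auh was nearest to Aldh5a1 (0.066), Mrpl10 (0.070) and Poldip2 (0.071). Of the pairs of members, Ivd and Mccc2 were closest, at 0.11, and the subunits Mccc1 and Mccc2 farthest apart, at 0.25. From Ivd, 14 of the 9002 genes lay nearer than Mccc2. From Mccc2, 1054 lay nearer than its partner Mccc1. The profiles contain the difference between the groups, so that nearness includes a similar fold change.

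The call for each member depended on the fit, and its sign did not among the 22 alternatives run. DESeq2 with 8 libraries called Ivd, Mccc2 and Auh (adjusted p = 6.24e-06, 4.60e-07 and 0.00936) among the 4.8% of genes it called lower in KO, and left Mccc1 at 0.0506. Limma-voom with sample quality weights called all 4, among 3.62% called lower. With total library size only, where the median of all genes moved to 0.26, the log2 fold changes were -0.45 for Ivd, -0.41 for Mccc2, -0.33 for Mccc1 and -0.29 for Auh, and Mccc2 was called (adjusted p = 0.0483) among 0.173% called lower. The TMM factors did not overlap between the groups, at 0.948 or less in WT and 1.05 or more in KO. Transcripts of the mitochondrial genome took 19.9% to 25.6% of counts in WT and 15.1% to 18.2% in KO, and with these genes removed before scaling the members' median was -0.61. Leaving out KO replicate 2 alone brought Ivd and Mccc2 past the threshold (adjusted p = 0.0344 and 0.0342), among 0.95% called lower. In the 6-library comparison with total library size only, Ivd and Mccc1 were called among 0.777% called lower, and DESeq2 with 6 libraries called all 4 among 6.29%.

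**Figure D5:**
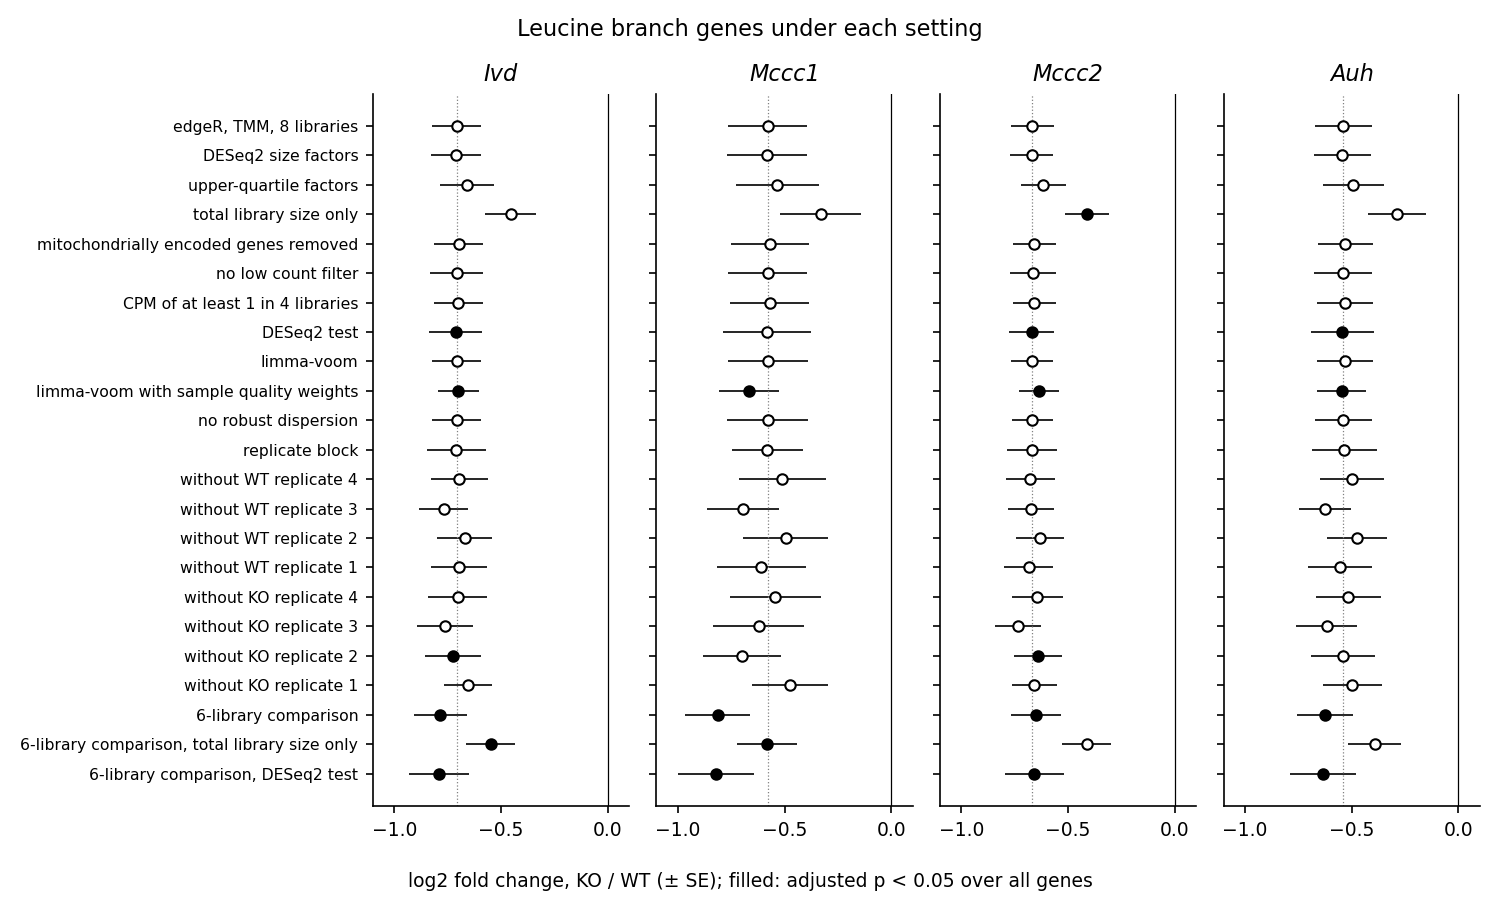
Log2 fold change of KO over WT with its SE (x axis) for each member under the fit with all libraries and 22 alternatives (y axis); filled circles have an adjusted p under 0.05 over all genes. All values lie below 0, from -0.82 (Mccc1, 6 libraries with DESeq2) to -0.29 (Auh, total library size only).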

How the data were processed

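Libraries were strand-marked by dUTP after poly(A) selection, per the labels' protocols. The authors deposited 1 whole-number count per gene for 8 libraries, without normalization. Per the submitters' processing notes, reads were placed on GRCm39. Aligner, counter, strand setting and annotation were not given in the sources used here. Symbols from GENCODE M21 were found for 18321 of 18395 genes.

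Genes were kept by filterByExpr and scaled by TMM. The test of KO against WT was that of edgeR 4.0.16 (R 4.3.3, robust quasi-likelihood F test, group as the only term), with Benjamini-Hochberg adjustment over 13901 genes and a threshold of 0.05. SE values come from the fold change and the F statistic. Profiles used log2 CPM with a prior count of 2. Ratios within libraries were compared by exact permutation (scipy 1.17.1). Alternatives included DESeq2 1.42.0, limma-voom (limma 3.58.1), other scaling and filters, a replicate block and each library left out, and the 6-library comparison was added later. Figures used matplotlib 3.10.9.

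The members, lists and the 6-library comparison were chosen with earlier results of these data known. Named genes were the members, Fermt2, genes of the lists and the 3 genes nearest in profile to each member.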

Additional observations from a re-analysis of the deposited data

Results flagged for a closer look

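In groups of 4, a library was marked when its gap to the nearest other library took up more than 0.829 of the group's range. Of 28 such checks on levels and ratios of the members 1 was marked, and chance marks about 1 in 20. Mccc2 in KO was highest in replicate 3, at 68.6 CPM, with the next library at 59.6 CPM.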

How the results depend on the processing

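All 4 members kept a log2 fold change below 0 in all 22 alternatives. Genes called numbered 0 in the edgeR fit with 8 libraries, 882 with total library size only, 1 without a low count filter, 1160 by DESeq2, 911 by limma-voom with quality weights, 0 to 373 with 1 library left out (373 without KO replicate 2), 461 in the 6-library comparison, and 1526 and 1567 there with total library size only and DESeq2. Ivd was past the threshold by DESeq2 (-0.71), with quality weights (-0.70), in the 6-library comparison (-0.78) and there with total library size only (-0.55) and DESeq2 (-0.79), and without KO replicate 2 (-0.72). Mccc1 was so with quality weights (-0.67) and in the same 6-library fits (-0.81, -0.58 and -0.82). Mccc2 was so with total library size only (-0.41), DESeq2 (-0.67), quality weights (-0.63), 6 libraries (-0.65), 6 libraries with DESeq2 (-0.66) and without KO replicate 2 (-0.64). Auh was so by DESeq2 (-0.54), quality weights (-0.55), 6 libraries (-0.63) and 6 libraries with DESeq2 (-0.63). With 1 library left out, values ranged from -0.77 to -0.65 for Ivd, -0.70 to -0.47 for Mccc1, -0.73 to -0.63 for Mccc2 and -0.63 to -0.47 for Auh.

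Pair ratios that were not called changed sign in places: Mccc1 to Mccc2 ranged from -0.045 to 0.20 with 1 library left out and was -0.17 with 6, Ivd to Mccc2 ranged from -0.10 to 0.011, Mccc1 to Auh from -0.15 to 0.029, and Ivd to Mccc1 was 0.030 with 6. The causes of these changes were not tested. Same-numbered libraries deviated together with correlations of -0.13, 0.12, -0.11 and 0.12 over 2000 genes, so that the numbers were not taken as pairs. With a replicate block edgeR called 0 genes, and the members stood at -0.71 (Ivd), -0.58 (Mccc1), -0.67 (Mccc2) and -0.54 (Auh), with adjusted p from 0.120 to 0.161.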

Other observations

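Propionyl-CoA carboxylase, the other mitochondrial carboxylase built from a biotin subunit (Pcca) and a partner (Pccb), was looked at after the values were seen, since Pcca was among the genes nearest to Mccc1. The log2 count ratio of Pcca to Pccb was -1.44, -1.37, -1.55 and -1.30 in WT replicates 1 to 4 and -1.84, -1.51, -1.79 and -1.98 in KO replicates 1 to 4. Its means were -1.41 ± 0.11 in WT and -1.78 ± 0.20 in KO (SD, n = 4), with KO replicate 2 inside the WT range and the other 3 KO libraries below it. This ratio was not tested.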
